A study of Homo sapiens with 3 samples.

Results

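Genes that make, sense and break down prostaglandins were examined in 1205Lu, a human melanoma line derived from a lung metastasis that WM793 cells formed as a xenograft. The 9 genes were PLA2G4A, PTGS1, PTGS2, PTGES, PTGES2, PTGIS, PTGER2, PTGER4 and HPGD, taken as every probe carrying one of these symbols, which gave 14 probes among the 30982 gene names on the array. Total RNA came from the same line in 3 states, with 1 array for each and no replicate. The original monolayer (OM) had been kept for 14 days in RPMI-1640 with 10% fetal calf serum (FCS). The melanoma bodies (MB), substrate-attached three-dimensional aggregates, had been kept for 14 days in human embryonic stem cell (hESC) medium, a DMEM F-12 base whose serum is replaced by 20% KnockOut substitute. The new monolayer (NM) consisted of cells that had spent 14 days as bodies in hESC medium and then 10 days in RPMI-1640 with 10% FCS, from which leftover bodies were taken away before the RNA was made. Growth form and medium changed together between MB and either monolayer, so their parts in a difference cannot be told apart. All 3 populations came from 1 line, and the labels name no other treatment and no genetic change.

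Prostaglandins are short-range lipid signals. A phospholipase cuts arachidonic acid from membrane lipids, a cyclooxygenase turns it into prostaglandin H2, and terminal synthases convert that intermediate into products such as prostaglandin E2 and prostacyclin. Prostaglandin E2 acts on cell surface receptors, of which EP2 and EP4 raise cyclic AMP, and a dehydrogenase starts its breakdown. Inducible cyclooxygenase is produced by many tumours, melanoma among them.

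Signals are in arbitrary units (a.u.), scaled so that the 3 housekeeping genes GAPDH, ACTB and HSP90AA1 had the same mean on every array as on OM. The scaling factors were 1.02 for MB and 1.14 for NM. The scanner software marks a spot as well above background or not, and the lowest scaled signal so marked, the floor of the array, was 20.9 a.u. on OM, 19.8 a.u. on MB and 33.2 a.u. on NM. Where only the brighter array was above background, the ratio was taken against the floor or the dim signal, whichever was higher, and is written as at least that fold. A ratio counted as measured where the brighter array was well above background and over 100 a.u. before scaling. Of 41000 probes, 64.7% to 71.0% were well above background on each array. An error after ± is the SD over spots for the 2 probes printed in 10 spots (PLA2G4A and 1 PTGS2 probe), and otherwise the error estimate of the scanner software for a single spot. Both errors are technical, and no test between populations could be made. Over probes printed in 10 spots, the typical SD of a log2 ratio between spots in the same place was 0.030 to 0.036 above 100 a.u. and 0.15 to 0.17 between 20 and 100 a.u. In pooled RNA, fewer cells with a transcript and less of it per cell cannot be told apart.

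Both PTGS2 probes and both PTGS1 probes are shown because reading them together shows how far each cyclooxygenase result rests on 1 sequence. The first sequence of PTGS2 is a whole probe of 60 bases. Its position in coordinates of build hg17 is given as chr1:183374765-183374823, a span slightly shorter than the probe. The second PTGS2 sequence is bases 16 to 45 of the probe at chr1:183373126-183373185. The PTGS1 sequences are bases 16 to 45 of the probes at chr9:122234606-122234665 and chr9:122237090-122237149, and the PLA2G4A sequence is the whole probe at chr1:183689309-183689368. All of them are written 5′ to 3′ as printed in the array design.
PTGS2, dimmer probe: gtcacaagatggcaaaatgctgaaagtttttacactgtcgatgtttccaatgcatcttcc
PTGS2, brighter probe: tgaatgtttgtccttaggataggcctatgt
PTGS1, brighter probe: gaatactgggttcttagttgacaacctaga
PTGS1, dimmer probe: caagaaagcttcttcagagtgaagaatctt
PLA2G4A: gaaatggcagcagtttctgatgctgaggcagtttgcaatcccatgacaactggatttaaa

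PTGS2 and PLA2G4A are neighbours on chromosome 1, with 0 protein-coding genes between them in RefSeq annotation of GRCh38.p14. Their 250 bases before the transcription start, from RefSeq in that build, are printed because these genes were the members at least 2-fold higher in both MB and NM than in OM. Capitals mark matches on either strand to a TATA box (TATAAA), the core of the cyclic AMP response element (CRE, TGACG) and a C/EBP core (TTNNGCAA). The PTGS2 window is chr1:186680424-186680673 on the minus strand, and the PLA2G4A window is chr1:186828699-186828948 on the plus strand.
PTGS2 promoter: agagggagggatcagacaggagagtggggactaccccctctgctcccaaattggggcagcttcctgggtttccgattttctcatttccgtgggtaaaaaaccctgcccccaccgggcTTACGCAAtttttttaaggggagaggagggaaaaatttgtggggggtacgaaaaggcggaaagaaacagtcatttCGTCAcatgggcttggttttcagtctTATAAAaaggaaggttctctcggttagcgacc
PLA2G4A promoter: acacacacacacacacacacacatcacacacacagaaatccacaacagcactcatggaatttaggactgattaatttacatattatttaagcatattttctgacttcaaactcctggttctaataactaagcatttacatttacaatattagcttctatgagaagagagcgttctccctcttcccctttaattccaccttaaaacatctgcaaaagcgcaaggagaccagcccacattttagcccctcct

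The PTGS2 window held the TATA match 32 bases, the CRE core 58 bases and the C/EBP match 133 bases before the start, and these matches did not overlap. Of 35116 RefSeq windows of the same length, 10.7% held the TATA letters, 21.2% the CRE core and 9.05% the C/EBP core. The PLA2G4A window held none of these letters and no GC box (GGGCGG, in 42.6% of windows). It also held no match to the NF-kB consensus used (9.96% of windows). The PTGS2 window held no GC box and no full match to that NF-kB consensus. Near its 5′ end it does hold ggggactaccccc, which has an A where the consensus requires C or T. Such near matches were not counted, so an NF-kB site in this window is not excluded. Over the 12 windows of 8 members, 9 held a GC box and 3 an NF-kB match. PTGIS had no window in the table used. A match of letters is a description of the sequence and not a measured binding site.

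More of the 14 probes were detected on MB (10 well above background) than on OM (6) or NM (6), and none was saturated. Among all 41000 probes the detected share was 71.0% for MB, 70.1% for OM and 64.7% for NM, whose floor was highest. The MB count includes the single PTGS1 spot described below and an HPGD spot that, at 20.9 a.u., lay at the OM floor. PTGS2, the inducible cyclooxygenase, and PLA2G4A, the cytosolic phospholipase A2 that releases arachidonic acid, were higher in MB and in NM than in OM. PTGS2 was 7.06-fold higher in MB than in OM and stayed 2.81-fold higher in NM. PLA2G4A was 3.01-fold higher in MB and 2.55-fold higher in NM than in OM. PTGIS, prostacyclin synthase, was higher in MB than in either monolayer. PTGES2, a prostaglandin E synthase, was nearly level, whereas PTGES and HPGD, the inducible prostaglandin E synthase and the dehydrogenase that inactivates prostaglandins, gave signals near or below the floor.

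**Figure D1:**
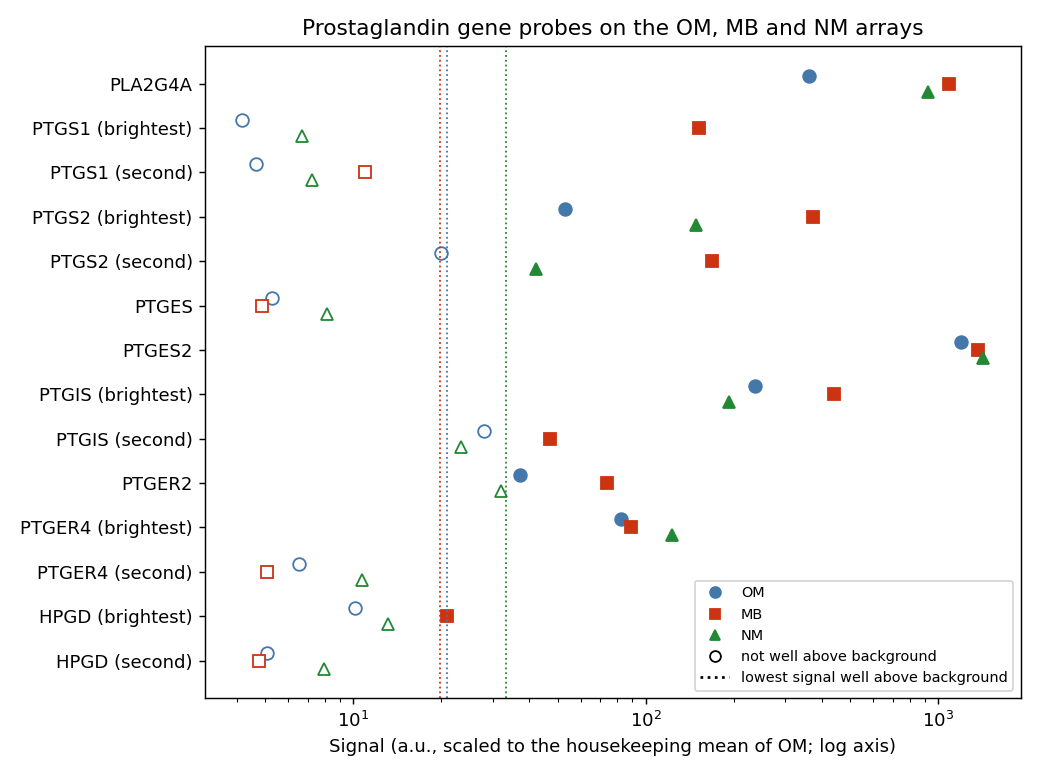
Scaled signal in a.u. on a log axis of each of the 14 probes on the OM, MB and NM arrays, with open symbols for spots not well above background and dotted lines at the lowest signal well above background on each array. For PTGS2 the MB reading lay farthest right on both probes, and the OM readings were the lowest at 52.9 and 19.9 a.u.

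PLA2G4A gave 363 ± 15.5 a.u. on OM, 1092 ± 71.4 a.u. on MB and 924 ± 30.3 a.u. on NM over 10 spots each. Single spots ran from 331 to 391 a.u. on OM, from 875 to 972 a.u. on NM and from 1014 to 1272 a.u. on MB, so the spot ranges of the 3 arrays did not overlap. The log2 ratio was 1.59 ± 0.084 for MB over OM and 1.35 ± 0.047 for NM over OM (SD over 10 spots). OM was low, and NM lay closer to MB than to OM. The ratio of MB to NM was 1.18-fold, a log2 difference of 0.24 ± 0.078 with MB higher in 10 of 10 spots. That small difference ranged from 0.07 to 0.40 over the alternative settings, including scalings that gave 1.05-fold and 1.32-fold.

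The brighter PTGS2 probe gave 52.9 ± 5.05 a.u. on OM and 149 ± 9.08 a.u. on NM over 10 spots each, and 374 ± 11.4 a.u. on MB over the 8 spots that were not marked as outliers. The spot ranges were 46.0 to 61.4 a.u. on OM, 133 to 166 a.u. on NM and 358 to 388 a.u. on MB. MB was high, OM low and NM between them, with no overlap among spots. The log2 ratio was 2.82 ± 0.14 for MB over OM (SD over 8 spots) and 1.49 ± 0.19 for NM over OM (SD over 10 spots). MB exceeded NM by 2.51-fold, a log2 difference of 1.33 ± 0.085. The OM signal of PTGS2 was below 100 a.u., where the treatment of background weighs most. With normexp background correction the MB over OM ratio was 3.71-fold and no longer reached 5-fold.

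The dimmer PTGS2 probe, which reads another stretch of the transcript, kept this order. It gave 19.9 ± 4.81 a.u. on OM, not well above background, 169 ± 17.4 a.u. on MB and 42.3 ± 8.12 a.u. on NM. MB was at least 8.07-fold above OM and 3.99-fold above NM on this probe. NM was at least 2.02-fold above OM, with neither array over 100 a.u. Both sequences of PTGS2 therefore placed MB highest and OM lowest.

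**Figure D2:**
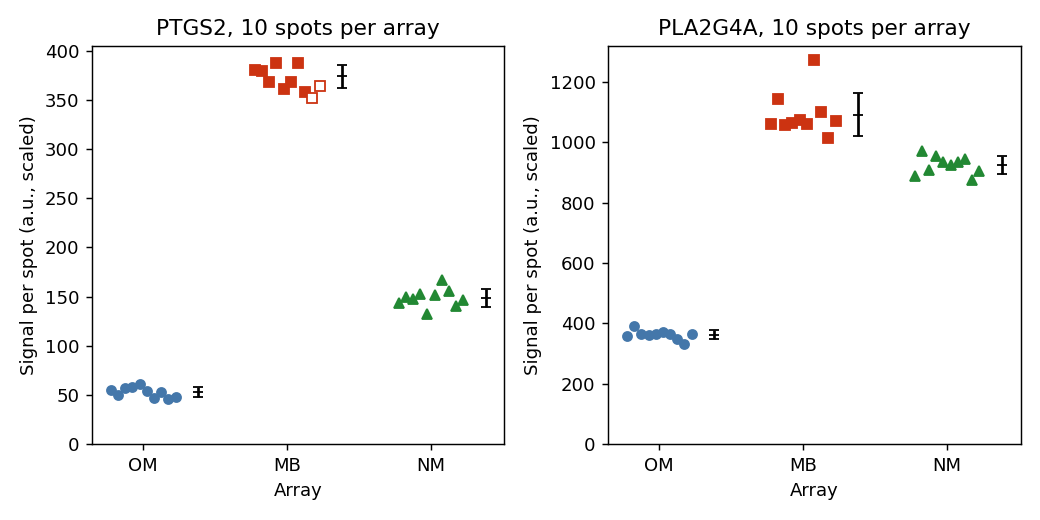
Scaled signal in a.u. of each of the 10 spots of the brighter PTGS2 probe and of the PLA2G4A probe on OM, MB and NM, with the mean and SD of the spots used beside them and open symbols for the 2 PTGS2 spots left out as outliers on MB. Spots of 1 array are technical repeats, and at the scaling used the 3 arrays occupied separate ranges for both genes.

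PTGS1, the cyclooxygenase that most cells make at a steady level, gave readings that its pair of probes did not share. Its brighter probe read 4.19 ± 4.17 a.u. on OM and 6.70 ± 6.67 a.u. on NM, neither above background, and 152 ± 15.7 a.u. on MB. MB thus exceeded OM by at least 7.27-fold and NM by at least 4.57-fold. The dimmer probe read 4.66 a.u. (OM), 11.0 a.u. (MB) and 7.22 a.u. (NM), and no array had it above background. The MB reading of PTGS1 was a single spot, with a pixel mean of 225 and a pixel median of 220 over a local background of 46.5 before subtraction. Within 2 positions of it on the array, 2 of the 24 surrounding spots were likewise over 100 a.u. on MB and not above background on OM or NM. They carried the transcripts BC010615, at 150 a.u. and 1 row away, and AF119849, at 156 a.u. and 2 rows away. Across the MB array 82 spots had this pattern, and 36 of them lay within 2 positions of another. The corresponding numbers were 20 of 39 on OM and 29 of 62 on NM. The part of the position on the slide in the PTGS1 reading was not tested.

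Among the terminal synthases, PTGIS makes prostacyclin from prostaglandin H2. Its brighter probe, at chr20:47553855-47553914 in hg17, gave 236 ± 24.2 a.u. on OM, 441 ± 44.4 a.u. on MB and 193 ± 20.9 a.u. on NM. MB was 1.87-fold over OM and 2.29-fold over NM, while OM was 1.23-fold over NM with overlapping error ranges. For PTGIS, unlike PTGS2 and PLA2G4A, NM did not exceed OM. Its dimmer probe gave 28.0 a.u. on OM, 47.2 a.u. on MB and 23.4 a.u. on NM, with only MB above background. MB exceeded OM by at least 1.68-fold and NM by at least 1.42-fold on that probe.

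PTGES2, at chr9:127965561-127965620 in hg17, had the smallest difference between its lowest and highest array among the 5 members above background on all arrays. It gave 1199 ± 120 a.u. on OM, 1371 ± 137 a.u. on MB and 1427 ± 143 a.u. on NM. The ratios were 1.14-fold for MB over OM, 1.19-fold for NM over OM and 1.04-fold for NM over MB, and the error ranges of the 3 spots overlapped. The sign of the first turned to a log2 ratio of -0.12 when arrays were scaled to their spike-in controls, and that of MB over NM from -0.06 to 0.10 with no scaling. PTGES, at chr9:129581064-129581123, read 5.27 a.u. on OM, 4.88 a.u. on MB and 8.16 a.u. on NM. No array had PTGES well above background, so its signal was not detectable at the floors given above.

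Both prostaglandin E2 receptors were dim. PTGER2, which encodes EP2, gave 37.1 ± 5.76 a.u. on OM, 73.6 ± 8.46 a.u. on MB and 32.1 ± 7.63 a.u. on NM, the last not well above background. The MB signal exceeded that of OM by 1.98-fold and that of NM by at least 2.22-fold, but no array passed 100 a.u. and these ratios are outside the counts below. The brighter PTGER4 probe, for EP4, gave 82.6 ± 9.28 a.u. on OM, 89.0 ± 9.77 a.u. on MB and 123 ± 14.0 a.u. on NM. NM was 1.49-fold over OM and 1.38-fold over MB, while MB and OM differed by 1.08-fold, within the spot errors. The receptors thus had different highest arrays, MB for PTGER2 and NM for PTGER4. The other PTGER4 probe read 6.52 a.u. on OM, 5.10 a.u. on MB and 10.8 a.u. on NM, none of them above background.

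HPGD, the dehydrogenase, was read by a probe whose position in hg17, chr4:175791475-175804605, is longer than its 60 bases and so spans an intron. It gave 10.1 a.u. on OM, 20.9 a.u. on MB and 13.2 a.u. on NM. The MB spot was marked well above background, but it lay at the OM floor, so no fold is given. The second HPGD probe read 5.09 a.u. on OM, 4.78 a.u. on MB and 7.93 a.u. on NM, with none above background.

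In counts, 5 of the 9 members had a measured ratio of MB to OM, and 3 of these, PTGS1, PTGS2 and PLA2G4A, were higher in MB by 2-fold or more. Over all 17814 genes measured in that comparison 6.76% were higher by 2-fold and 4.23% lower. PTGS1, by its bound, and PTGS2 passed 5-fold, against 1.03% of all genes. No member was lower in MB by 2-fold, nor by 5-fold, which 0.690% of genes were. For MB over NM, 3 of 6 measured members were higher by 2-fold, PTGS1, PTGS2 and PTGIS, against 13.7% of 17753 genes, and 0 were lower, against 10.4%. No member reached 5-fold there in either direction, against 2.26% of genes higher and 1.67% lower in MB. For NM over OM, 2 of 5 were higher, PTGS2 and PLA2G4A, against 4.37% of 17525 genes, and 0 were lower, against 5.99%. Again 0 members reached 5-fold, against 0.765% of genes higher and 0.553% lower in NM. Among measured members the log2 ratios of MB against OM had a median of 1.59, where all measured genes had 0.09. Against NM, the median for MB was 0.72 among members and 0.04 among all genes, and NM against OM gave 0.57 and 0.08. These comparisons share arrays and are not independent readings. The members were also chosen with earlier results of these data known, so the counts and medians are descriptions only.

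**Figure D3:**
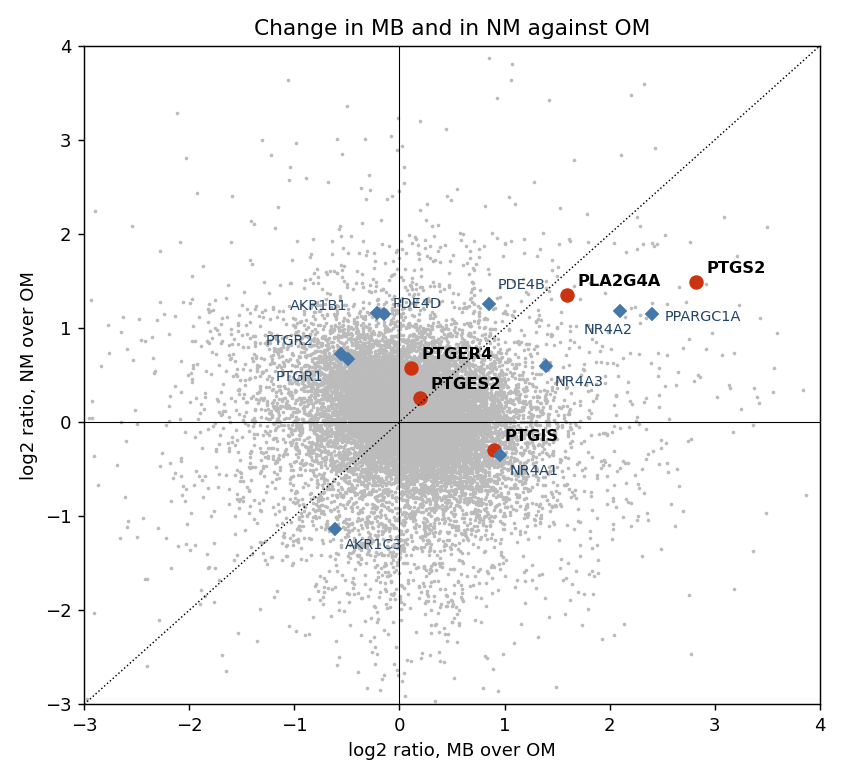
Log2 ratio of MB over OM on the x axis against log2 ratio of NM over OM on the y axis. Grey points are genes well above background on all arrays and over 100 a.u. on 1 or more. Red circles are the 5 members among them, and blue diamonds are other pathway genes that differed 2-fold between any pair of arrays. Both axes share the OM array, 39 of 17579 genes lie outside the axes, and PTGS2 and PLA2G4A sit to the upper right at 2.82 and 1.59 on the x axis.

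PTGS2 and PLA2G4A were each at least 2-fold higher than OM in both MB and NM. This pattern was held by 100 of the 17579 genes above background on all arrays and over 100 a.u. on 1 or more (0.569%). With normexp background correction PTGS2 was 1.86-fold higher in NM than in OM and so left this set. Of the genes around this pair on chromosome 1, PDC and RGS18 were not above background on any array. TPR, a nuclear pore protein, gave 19377 a.u. on OM, 24498 a.u. on MB and 24340 a.u. on NM. ODR4, BRINP3 and RGS21 had no probe under those names. Among the neighbours found under these names, TPR was the only one with a level to set beside the pair.

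The pattern of PTGS2 across arrays was set against all genes over 100 a.u. on every array, by the distance between their pairs of log2 ratios to OM. Over these 3 arrays the nearest of 15868 genes was PCSK6, a proprotein convertase, at a distance of 0.10, with 716 a.u. on OM, 5416 a.u. on MB and 1988 a.u. on NM. The transcript BX107899 followed at 0.17 and HS3ST3A1, a heparan sulfate sulfotransferase, at 0.23. For PLA2G4A the nearest were ENST00000382496 and TPD52L1, both at 0.18, and DERL3 at 0.21. PTGIS had 399 genes within 0.25, led by MAZ at 0.0026, whereas PTGS2 had 3 and PLA2G4A 5. PTGS2 itself, at 52.9 a.u. on OM, lay outside the set searched, so genes as dim on OM could not be among its nearest. Likeness over 3 arrays is a description and many genes can share such a pattern.

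PTGS2 is commonly induced along with inflammatory cytokines, so the values of IL1B, IL6 and IL8 are set beside it, a choice made after their values were seen. IL1B gave 235475 a.u. on OM, 46325 a.u. on MB and 377231 a.u. on NM, which is 5.08-fold lower in MB than in OM. IL6 was 8.65-fold lower and IL8 14.8-fold lower in MB than in OM. PTGS2 ran the other way between OM and MB, while in NM it and these cytokines were all above OM.

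The rest of the pathway was followed through 59 other genes in 6 lists, of which 50 were above background on at least 1 array and 34 had a measured ratio in each comparison. Between MB and OM, 3 were higher in MB by 2-fold and 0 lower, against 6.76% and 4.23% of all genes, and the median log2 ratio was 0.03. For MB over NM 2 were higher and 4 lower, against 13.7% and 10.4% of all genes, with a median of -0.09. For NM over OM 4 were higher and 1 lower, against 4.37% and 5.99%, with a median of 0.24, but without scaling 1 was higher and 2 lower. None of the 13 other phospholipases A2, the 13 genes of the lipoxygenase and leukotriene branch or the 7 other prostanoid receptors reached 2-fold among their measured members. Among the other phospholipases 7 were measured in each comparison, with a median log2 ratio of -0.05 between MB and OM. Only 3 genes of the lipoxygenase and leukotriene branch and 2 of the other receptors were measured in each comparison. Those are too few to call either list level. ALOX5, the enzyme that starts leukotriene synthesis, was not above background on any array, and TBXA2R, the thromboxane receptor, gave 1228 a.u. on OM, 1295 a.u. on MB and 1328 a.u. on NM.

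Among enzymes that reduce or inactivate prostanoids, AKR1B1, PTGR1 and PTGR2 were lower in MB than in NM by 2-fold or more. The listed reductases CBR1, CBR3 and CBR4 were not, with log2 ratios of 0.19, 0.16 and -0.17 for MB over NM. AKR1B1 was 1 of 6 genes measured in the list of other prostanoid synthases. PTGR1 and PTGR2 were 2 of 5 measured in the list of prostaglandin transport and breakdown. Of all genes 10.4% were lower in MB than in NM by 2-fold, as were 4 of the 34 measured other pathway genes. AKR1B1, an aldose reductase that can form prostaglandin F2α, gave 19241 a.u. on OM, 16545 a.u. on MB and 42926 a.u. on NM, 2.59-fold lower in MB than in NM. PTGR1, which reduces prostaglandin and leukotriene metabolites and is named LTB4DH on the array, gave 14520 a.u. on OM, 10309 a.u. on MB and 23134 a.u. on NM, a 2.24-fold difference between MB and NM. PTGR2, a related reductase listed as ZADH1, gave 787 a.u. on OM, 537 a.u. on MB and 1296 a.u. on NM. It was 2.41-fold lower in MB than in NM, and its second probe had the same log2 ratio of -1.27. AKR1C3, a reductase of prostaglandins and steroids, was instead lowest in NM, at 151 a.u. on OM, 98.8 a.u. on MB and 68.4 a.u. on NM. Its OM signal was 2.20-fold over NM. HPGD, the first enzyme of breakdown, offered no measured ratio to set beside them.

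Of 12 genes known to respond to cyclic AMP, the messenger that EP2 and EP4 raise, 3 were higher in MB than in OM by 2-fold and 0 lower among the 10 measured, against 6.76% and 4.23% of all genes. PPARGC1A, a coactivator of mitochondrial genes, gave 31.0 a.u. on OM, 164 a.u. on MB and 68.8 a.u. on NM, 5.29-fold higher in MB than in OM, though its other probe was not above background. NR4A2, an orphan nuclear receptor, gave 151 a.u. on OM, 649 a.u. on MB and 344 a.u. on NM, 4.29-fold higher in MB than in OM. NR4A3, of the same family, gave 418 a.u. on OM, 1096 a.u. on MB and 630 a.u. on NM, 2.62-fold higher in MB than in OM, and its other probe was not above background on any array. These genes shared the order OM, NM, MB with PTGS2. NR4A1 was 2.47-fold higher in MB than in NM, at 4191 a.u. on OM, 8143 a.u. on MB and 3291 a.u. on NM, but its second probe differed by only 0.24 on the log2 scale. PDE4B, a phosphodiesterase that degrades cyclic AMP, was highest in NM at 10484 a.u., against 4376 a.u. on OM and 7902 a.u. on MB. PDE4D, of the same family, gave 66.4 a.u. on OM, 59.9 a.u. on MB and 148 a.u. on NM. The list was therefore mixed, with its median at 0.54 for MB over OM, 0.70 for NM over OM and -0.44 for MB over NM on the log2 scale.

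**Figure D4:**
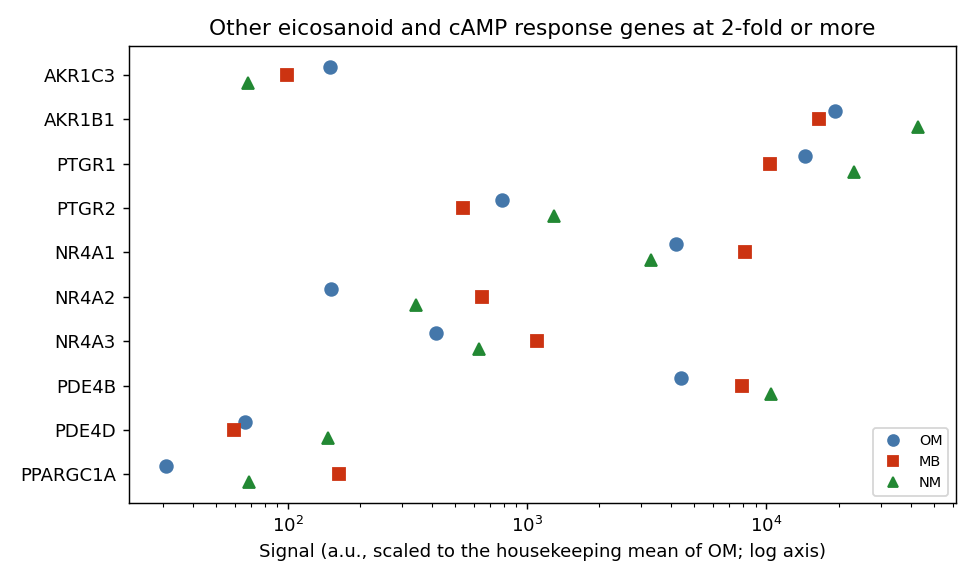
Scaled signal in a.u. on a log axis of the 10 other pathway genes that differed 2-fold between any pair of arrays, 1 point per array. NR4A2, NR4A3 and PPARGC1A read highest on MB, whereas AKR1B1, PTGR1, PTGR2, PDE4B and PDE4D read highest on NM.

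Markers of the labelled cell type were checked once. Of 10 melanoma and melanocyte genes, 8 were well above background on OM and MB and 7 on NM. The pigment enzymes TYR and TYRP1 were not above background on any array, while SOX10, a melanocyte lineage factor, gave 6254 a.u. on OM, 9598 a.u. on MB and 5571 a.u. on NM. Of other cell types, PTPRC, CDH5, COL1A1, COL1A2, COL3A1, LUM, KRT5, CDH1 and EPCAM (TACSTD1 on the array) were not above background on any array. The remaining genes of the keratinocyte and epithelial list were above background on every array, KRT10 at 39103 a.u. on OM, 40289 a.u. on MB and 37219 a.u. on NM, and KRT14 at 213 a.u., 381 a.u. and 134 a.u. in the same order. That list of 5 summed to 39332 a.u. on OM, 40685 a.u. on MB and 37377 a.u. on NM. The summed signal of 6 leukocyte genes, 5 of them above background on each array, was 5059 a.u. on OM, 2187 a.u. on MB and 6202 a.u. on NM. That of 6 fibroblast genes, of which 1 or 2 were above background, was 1289 a.u. on OM, 2434 a.u. on MB and 3189 a.u. on NM. The sum of 5 endothelial genes, 2 of them above background on each array, was 247 a.u. on OM, 517 a.u. on MB and 387 a.u. on NM. VWF, the member of that list above background on all arrays, gave 185 a.u. on OM, 399 a.u. on MB and 109 a.u. on NM, and TEK, at 231 a.u., was above background on NM alone. The part of other cells in the PTGS2 and PLA2G4A readings was not tested.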

How the data were processed

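Total RNA of 3 populations was labelled with Cy3 and hybridised to 3 one-colour Agilent arrays with 60-base probes of a single slide. The authors deposited the intensity of each spot from Feature Extraction (version 9.5.3.1 in the headers), after background subtraction, with a surrogate in place of low values and without scaling between arrays. Control spots and 77, 79 and 81 outlier spots (OM, MB, NM) were left out, spots of a probe were averaged, and arrays were scaled as the report states. HSP90AA1 was taken for the HSP90 of the methods. The probe with the highest mean signal stood for its gene. Named genes were all members, listed genes that differed 2-fold between any pair of arrays above 100 a.u., and the 3 genes nearest in pattern to each member that varied 2-fold. The 5-fold and 100 a.u. thresholds come from the methods, and 2-fold was added. The members and lists were chosen with earlier results of these data known. RefSeq matched 8 members by accession and PTGES2 by symbol. Precision is limited by 1 array per population, so no p-value is given. Python 3.11.15, numpy 2.4.6, pandas 2.3.3, R 4.3.3 and limma 3.58.1 (normexp) were used. Calls were checked on simulated data. The genes altered there were brighter on OM than PTGS1, PTGS2 and PLA2G4A, so that check did not cover dim signals.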

Additional observations from a re-analysis of the deposited data

How the results depend on the processing

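No paired analysis was possible because each population has a single array. Counts of members and of other pathway genes past 2-fold and 5-fold were recomputed under 14 alternatives, and 151 of 168 counts stayed within 1.5 times. That number includes 1 alternative, the deposited series values, which returned every count unchanged. It also includes counts of 0 that stayed 0. Members at 5-fold in MB over OM were 2, but 0 with normexp, 0 with no background subtraction and 1 without bright spots beside another (PTGS1 then has no MB value). At 5-fold in MB over NM they were 0, but 1 with no scaling and 1 with the median over pixels. With normexp, members at 2-fold fell to 1 in MB over NM and 1 in NM over OM. Other pathway genes at 5-fold in MB over OM were 1, but 0 with the 75th percentile, spike-in scaling, normexp, no background subtraction or the median over pixels. At 2-fold they went from 3 to 5 in MB over OM with a minimum of 50 a.u. or none, and from 5 in NM over OM to 3 with no scaling (1 higher and 2 lower, against 4 and 1), 2 with normexp and 2 with no background subtraction. The causes were not tested.

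The log2 ratio of PTGS2 ran from 1.89 to 2.92 for MB over OM, from 0.99 to 1.66 for MB over NM and from 0.90 to 1.64 for NM over OM. That of PLA2G4A ran from 1.28 to 1.59 for MB over OM and from 1.16 to 1.42 for NM over OM. PTGIS in MB over NM ran from 0.86 to 1.35, and the PTGS1 bound in MB over OM from 1.59 to 3.29 over the 13 alternatives that gave it. The median log2 ratio of all genes for MB over OM moved from 0.09 to -0.09 with the 75th percentile, -0.01 with quantile normalization and -0.22 with spike-in scaling, and the share of 2-fold calls that were higher from 61.5% to 42.9%, 49.0% and 30.9%. For MB over NM that share was 56.9%, with 68.6% under no scaling (median 0.19) and 44.0% under spike-in scaling (median -0.14). For NM over OM it was 42.1%, with 26.6% and 30.6% (medians -0.11 and -0.06). No member was lower by 2-fold under any alternative. Signal over background limits PTGES, HPGD, PTGER2 and the OM readings of PTGS1 and PTGS2.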
